A study of Mus musculus with 6 samples.

Results

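The genes described are 50 members of the Eph receptor, ephrin, semaphorin, plexin and neuropilin families, out of 55471 genes measured in mouse endosteal mesenchymal stromal cells. They were chosen by symbol from a fixed list, without a threshold on any measured value, and all 50 were found. The list holds 6 EphA and 5 EphB receptors, 5 ephrin-A and 3 ephrin-B ligands, 20 semaphorins, 9 plexins and 2 neuropilins. Stromal cells from the inner bone surface were compared by RNA sequencing between 3 libraries labelled Bap1 cKO and 3 labelled Bap1 WT. The cKO mice carried Prx1-cre;Bap1fl/fl and the WT mice Bap1fl/fl, so the floxed Bap1 allele was common to both groups, and all were on the C57BL/6J strain. Prx1-cre drives Cre recombinase in the mesenchyme of the developing limb. BAP1 removes ubiquitin from histone H2A. Age and the number of animals behind each library are not given in the sources used here, so p-values measure the spread between these libraries, which may be technical.

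Ephrins are ligands tethered to the cell surface, type A by a lipid anchor and type B by a transmembrane segment, and they bind Eph receptor tyrosine kinases on neighbouring cells. Signals run into both the receptor cell and the ephrin cell, and they set cell repulsion, adhesion and tissue boundaries. Semaphorins act through plexins, and most secreted class 3 semaphorins also need a neuropilin to bind their plexin. In mouse bone, ephrin-B2 and EphB4 signal between osteoclasts and osteoblasts, Sema3A from osteoblast lineage cells protects bone, and Sema4D from osteoclasts restrains osteoblasts through plexin-B1.

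Values are RPKM, which are reads scaled by gene length and library size. Bap1 itself had 28.27, 25.16 and 22.99 RPKM in the cKO libraries, against 22.80, 22.72 and 24.01 RPKM in the WT libraries, and did not pass the test (log2 difference 0.13, limma adjusted p = 0.29). A gene-level value cannot show the loss of floxed exons, so these levels do not check the genotype labels. The estimated depth was 13.08 to 22.16 megafragments per library, and cKO replicate 3 was the deepest. At this depth a floor of 3 fragments per kilobase was 0.135 to 0.229 RPKM, and lower values are too imprecise for a fold. The floor is set per kilobase, so a long transcript under it can still hold more fragments than a short one. The summed level of 15 mesenchymal stromal markers was 137 to 238 RPKM in the cKO libraries and 2212 to 2347 RPKM in the WT libraries. In WT most of this sum was Col1a1, Col1a2 and Cxcl12. Of 12 tested markers, 8 were lower, 1 was higher and 3 did not pass, where 26.5% of all genes tested were lower. The higher one was Pdgfra, with 19.56, 9.72 and 11.06 RPKM in cKO and 7.51, 6.86 and 8.31 RPKM in WT (limma adjusted p = 0.045). That call was lost without any one WT library (limma adjusted p = 0.11, 0.13 and 0.081) and under several other alternatives. The osteoblast factor Sp7 was at 0 in all 3 cKO libraries, only at 0.68, 0.78 and 0.75 RPKM in WT, and was not tested. Most tested markers of the labelled cell type were thus lower in the libraries labelled cKO. Prrx1, the gene whose enhancer drives the Cre, had 72.24, 39.46 and 45.51 RPKM in cKO and 75.02, 83.75 and 68.16 RPKM in WT. The 12 kidney tubule markers summed to 126 to 247 RPKM in cKO and 0.40 to 0.62 RPKM in WT. Nearly all of the cKO sum was Pax8, while Umod and Calb1 were at 0 in all 6 libraries. Cdh16 had 1.86, 2.14 and 1.37 RPKM in cKO and Pax2 had 1.17, 1.08 and 0 RPKM, and both were at 0 in WT. The other kidney tubule markers stayed at or under 0.47 RPKM, with the Slc12a1 values higher in WT. The 11 epithelial markers summed to 8.59 to 13.2 RPKM in cKO and 15.6 to 17.1 RPKM in WT, with Grhl2 and Cldn4 at 0 throughout. The tested ones went different ways. Krt19 was lower, with 1.67, 1.74 and 5.79 RPKM in cKO and 13.28, 11.73 and 13.73 RPKM in WT. Esrp2 was higher, with 3.15, 4.29 and 1.21 RPKM in cKO and at most 0.07 RPKM in WT, and Krt7 did not pass. Endothelial markers stayed at or under 0.65 RPKM in sum and haematopoietic markers at or under 2.40 RPKM, and 6 neural and Schwann markers summed to 1.09 to 2.52 RPKM in cKO and 5.58 to 7.12 RPKM in WT. Smooth muscle markers summed to 73.3 to 1644 RPKM in cKO, where replicate 3 held the highest sum, and to 2017 to 2235 RPKM in WT. The part of these marker shifts in the differences given next was not tested, and in bulk RNA fewer cells of a type and less RNA per cell cannot be told apart.

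Of the 50 guidance genes, 32 averaged 1 RPKM or more across all 6 libraries and entered the limma test on log2(RPKM + 1). At a Benjamini-Hochberg adjusted p under 0.05, taken over all 12223 genes tested, 13 guidance genes were higher in the libraries labelled cKO, 13 were lower and 6 did not pass. The 26 calls made up 81.2% of the tested guidance genes, and 61.2% of all genes tested were called, with 34.7% higher and 26.5% lower. A log2 difference of at least 1 in size was reached by 19 of the 26, 10 higher and 9 lower, or 59.4% of the tested guidance genes, against 25.6% of all genes. In the same 26 genes the cKO and WT values did not overlap, which was so for 69.0% of all genes tested. The median log2 difference was 0.16 for the guidance genes and 0.09 for all genes, and the median size of the difference was 1.22 and 0.53. With 3 libraries a group, an exact 2-sided permutation test of a single gene cannot go below 0.1, so each test borrows its variance from all genes. Of the 32 tested, 11 averaged under 1 RPKM in 1 group and reached the minimum only through the group where they were high, 7 higher and 4 lower in cKO. The families were also picked for description with earlier results of these data known, so their shares beside those of all genes are a description and lend no support.

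**Figure D1:**
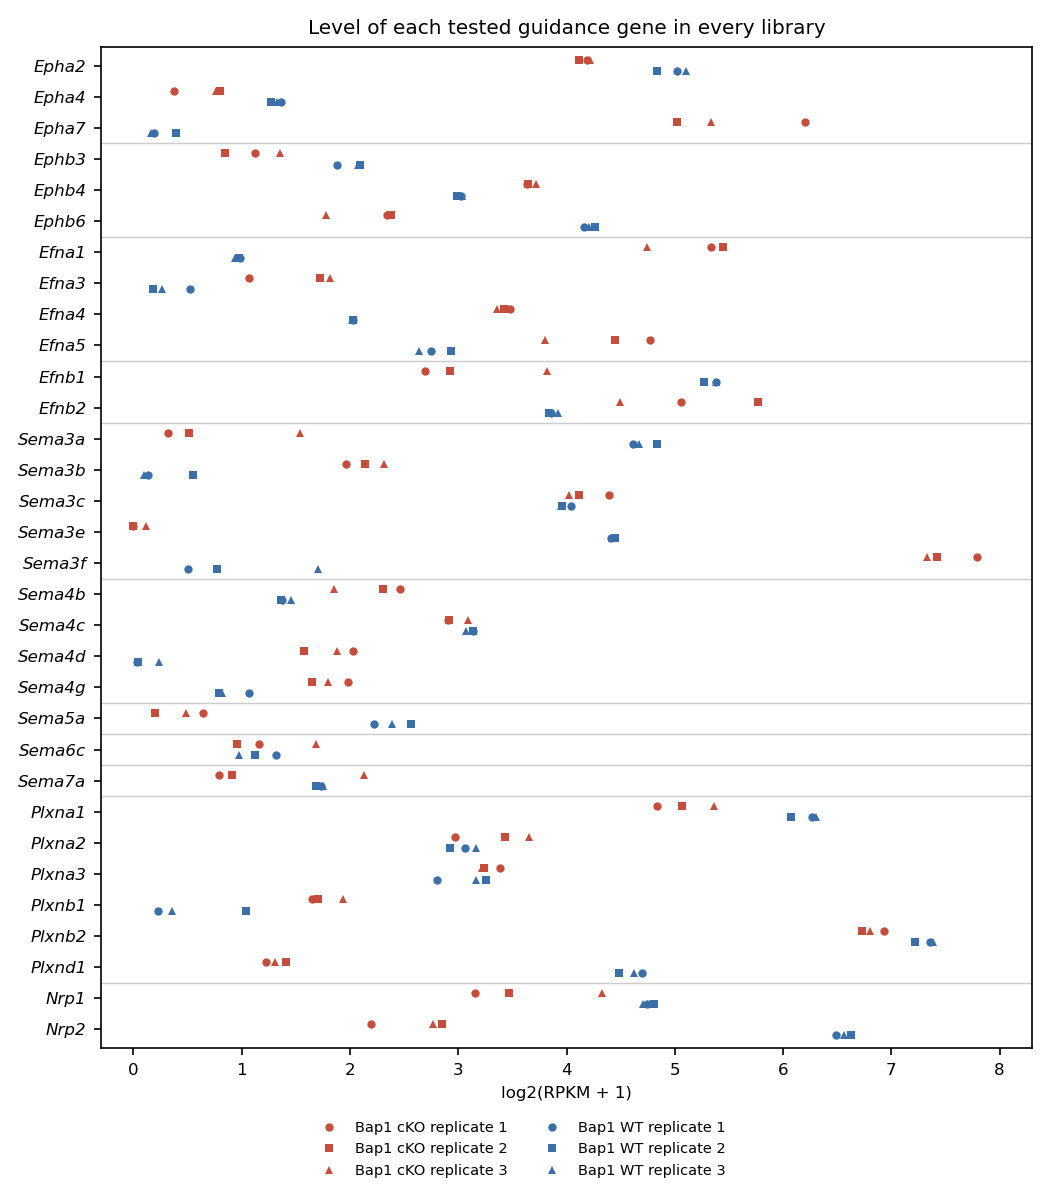
Level of each of the 32 tested guidance genes on the log2(RPKM + 1) scale, with 1 point per library and grey lines between classes. The cKO points (red, upper row of each gene) and WT points (blue, lower row) did not overlap in 26 of the 32 genes.

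Of the 5 ephrin-A ligands, Efna1, Efna3, Efna4 and Efna5 rose in cKO and Efna2 was not tested, and 34.7% of all genes were higher. Efna1 and Efna3 reached the minimum for testing only through their cKO values. The class sum was 77.76, 76.21 and 51.08 RPKM in the cKO libraries, against 11.58, 12.30 and 9.94 RPKM in the WT libraries, a ratio of means of 6.06. Efna1 encodes ephrin-A1, a high-affinity ligand of the receptor EphA2. Efna1 had 39.38, 42.56 and 25.71 RPKM in cKO and 0.98, 0.97 and 0.91 RPKM in WT. Every cKO library lay far above every WT library, a 37.6-fold difference in mean level (log2 difference 4.21 ± 0.19 SE, limma adjusted p = 1.2e-05). Efna5, which encodes ephrin-A5, had 26.37, 20.81 and 12.90 RPKM in cKO and 5.73, 6.63 and 5.23 RPKM in WT. It was 3.42-fold higher with a wide spread among the cKO libraries (log2 difference 1.57 ± 0.25 SE, limma adjusted p = 0.0018).

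Efna4 had 10.12, 9.73 and 9.28 RPKM in cKO, against 3.07, 3.09 and 3.06 RPKM in WT. Both groups were tight, and the 3.16-fold difference gave a log2 value of 1.39 ± 0.10 SE (limma adjusted p = 5.9e-05). Efna3 was the lowest of the 4, at 1.09, 2.31 and 2.52 RPKM in cKO and 0.44, 0.13 and 0.20 RPKM in WT, where replicate 2 was under the floor, so no fold is given. Its log2 difference was 1.21 (limma adjusted p = 0.0050), and without cKO replicate 2 or 3 its mean fell under the minimum for testing. Efna2, the fifth ephrin-A gene, had 0.80, 0.80 and 0.67 RPKM in cKO and 1.36, 1.48 and 0.54 RPKM in WT, with overlap, and was under the minimum for testing. Within the class, Efna1 made up 50.3 to 55.8% of the summed RPKM in cKO and 7.89 to 9.15% in WT, where Efna5 held 49.5 to 53.9%.

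Efna1, Efna3 and Efna4 are neighbours on the minus strand of chromosome 3, within chr3:89271733-89338028 (GRCm38). Within 250000 bp on either side, 23 other genes were tested, of which 9 were higher, 4 lower and 10 did not pass, with a median log2 difference of 0.23. The share of those neighbours that was higher, 39.1%, stood beside 34.7% of all genes, and the median log2 difference on chromosome 3 was 0.089. The promoters of Efna1 and Efna4 are shown because both genes rose from the same locus. They are RefSeq windows of GRCm38.p6, 250 bases before to 50 after the start, minus strand, read 5′ to 3′ with every CG in capitals. CG pairs are marked because promoters rich in them are, as background, the common sites of the Polycomb proteins whose H2A mark BAP1 removes. Efna1 is at chr3:89280902-89281201 and Efna4 at chr3:89337979-89338278. Efna1 has 2 windows in this set, and the first listed is shown.
Efna1: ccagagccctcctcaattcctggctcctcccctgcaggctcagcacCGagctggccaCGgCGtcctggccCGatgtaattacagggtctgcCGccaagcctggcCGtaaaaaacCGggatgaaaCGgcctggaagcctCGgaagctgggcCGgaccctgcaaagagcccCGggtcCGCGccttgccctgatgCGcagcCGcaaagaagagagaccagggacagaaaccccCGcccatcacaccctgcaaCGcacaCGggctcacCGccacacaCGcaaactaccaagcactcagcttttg
Efna4: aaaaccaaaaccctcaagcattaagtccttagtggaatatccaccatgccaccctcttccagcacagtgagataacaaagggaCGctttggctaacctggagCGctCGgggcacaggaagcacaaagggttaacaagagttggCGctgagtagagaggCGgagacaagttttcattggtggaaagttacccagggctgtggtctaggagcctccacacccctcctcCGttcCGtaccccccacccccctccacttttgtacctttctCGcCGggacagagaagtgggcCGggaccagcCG
These windows hold 20 CG in Efna1 and 11 in Efna4, and 26.8% and 41.9% of the 27025 genes with a window hold at least as many.

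**Figure D2:**
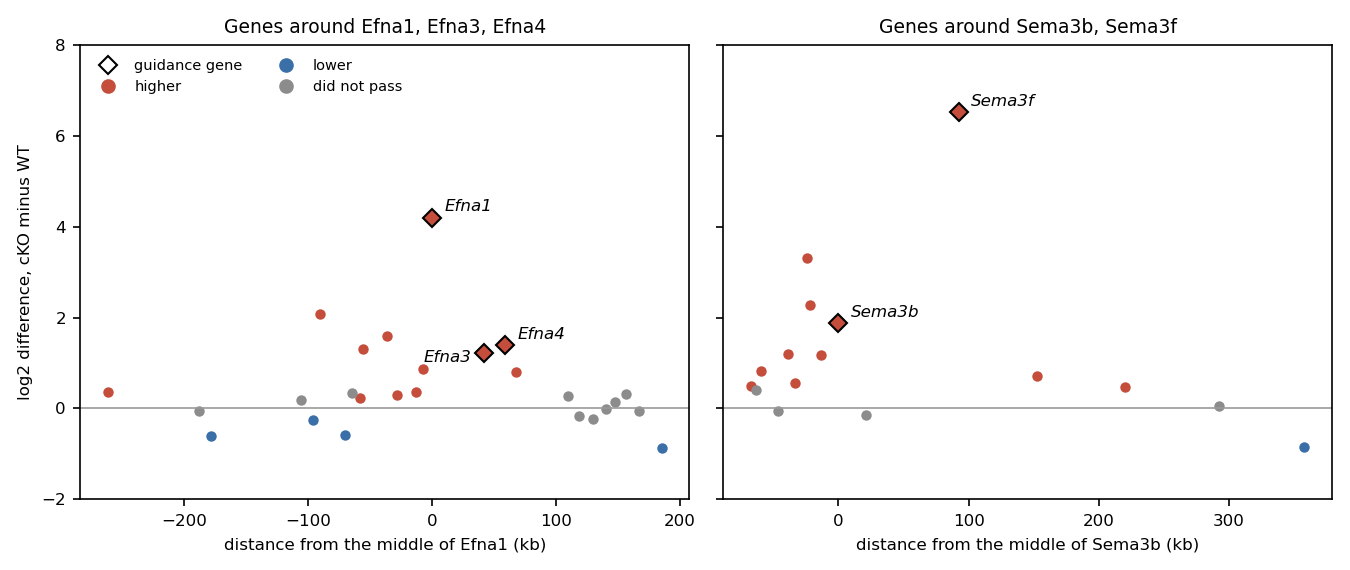
Log2 difference (cKO minus WT) of guidance genes (diamonds) and other tested genes (circles) against distance in kb from the middle of Efna1 (left) and of Sema3b (right); red is higher in cKO, blue lower and grey did not pass. Among the 23 neighbours of the ephrin-A genes 9 were higher, and among the 14 neighbours of Sema3b and Sema3f 9 were higher.

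The ephrin-B ligands moved in opposite directions. Efnb2, the preferred ligand of EphB4, had 32.33, 53.55 and 21.56 RPKM in cKO and 13.51, 13.32 and 14.12 RPKM in WT. All 3 cKO libraries were above WT but differed widely among themselves, and the gene was 2.62-fold higher (log2 difference 1.24 ± 0.30 SE, limma adjusted p = 0.011). Efnb1, an X-linked gene needed for skull suture and limb patterning, had 5.48, 6.57 and 13.14 RPKM in cKO and 40.61, 37.52 and 40.70 RPKM in WT. Efnb1 was 4.72-fold lower (log2 difference -2.20 ± 0.28 SE, limma adjusted p = 0.00070), with cKO replicate 3 the nearest to WT. Efnb3 was at or under 0.64 RPKM and was not tested. The class sum overlapped between groups, at 38.45, 60.50 and 35.05 RPKM in cKO and 54.47, 51.28 and 55.21 RPKM in WT, while the share of Efnb2 was 61.5 to 88.5% in cKO and 24.8 to 26.0% in WT.

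Among the EphA receptors, Epha7 had the highest level in cKO and Epha2 in WT. Epha7 had 72.90, 31.52 and 39.44 RPKM in cKO and 0.14, 0.31 and 0.12 RPKM in WT. It was near the floor in WT and reached the minimum for testing only through its cKO values. Its log2 difference of 5.28 ± 0.30 SE (limma adjusted p = 2.8e-05) is given without a fold because 2 WT libraries were under that floor. Epha2, a receptor of ephrin-A1 found in many epithelia and stromal cells, had 17.22, 16.31 and 17.56 RPKM in cKO and 31.42, 27.56 and 33.39 RPKM in WT. Both groups were tight and Epha2 was 1.81-fold lower (log2 difference -0.81, limma adjusted p = 0.00049). Epha7 made up 63.8 to 79.8% of the EphA sum in cKO and 0.342 to 1.05% in WT, and Epha2 made up 18.9 to 33.0% in cKO and 93.7 to 95.2% in WT. Both genes lie on chromosome 4, where the median log2 difference of 741 tested genes was 0.441.

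The Epha7 promoter is shown as that of the receptor with the largest difference. This window lies at chr4:28812881-28813180 on the plus strand, from the same RefSeq set, and is the first listed of 2.
Epha7: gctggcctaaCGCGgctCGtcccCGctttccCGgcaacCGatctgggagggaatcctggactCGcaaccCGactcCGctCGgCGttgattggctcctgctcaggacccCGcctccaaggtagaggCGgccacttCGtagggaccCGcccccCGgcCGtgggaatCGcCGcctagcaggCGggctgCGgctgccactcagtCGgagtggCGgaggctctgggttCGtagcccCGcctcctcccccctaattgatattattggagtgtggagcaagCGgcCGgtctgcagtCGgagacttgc
It holds 28 CG, a number reached by 14% of genes.

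Epha4, a receptor that binds both ephrin types, had 0.30, 0.74 and 0.70 RPKM in cKO and 1.57, 1.41 and 1.51 RPKM in WT. It was 2.58-fold lower (log2 difference -0.67, limma adjusted p = 0.013), a call lost when each chromosome was centred on its own median (limma adjusted p = 0.11). Epha4 reached the minimum for testing only through its WT values. Without any one WT library its mean fell under 1 RPKM and it was not tested. Epha1, Epha3 and Epha5 were at or under 0.94 RPKM in all libraries. The sum of the 6 EphA genes was 66.6 ± 22.0 RPKM in cKO and 32.6 ± 2.90 RPKM in WT (SD, n = 3 each), without overlap.

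The EphB receptors had a lower sum, 18.14, 17.38 and 18.20 RPKM in cKO, against 26.92, 28.53 and 27.94 RPKM in WT, with 1 member higher and 2 lower. Of all genes tested, 34.7% were higher and 26.5% lower. Ephb6, whose kinase domain is inactive, had 4.06, 4.21 and 2.44 RPKM in cKO and 16.93, 18.16 and 17.46 RPKM in WT. This 4.91-fold difference was the largest in the class (log2 difference -2.04, limma adjusted p = 0.00013). Ephb3 had 1.18, 0.80 and 1.55 RPKM in cKO and 2.68, 3.26 and 3.21 RPKM in WT, 2.59-fold lower without overlap (limma adjusted p = 0.0039).

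Ephb4, the receptor of ephrin-B2, had 11.39, 11.48 and 12.19 RPKM in cKO, against 7.13, 6.95 and 7.21 RPKM in WT. Every cKO library was above every WT library by a narrow and even margin, and the gene was 1.65-fold higher (log2 difference 0.65 ± 0.09 SE, limma adjusted p = 0.00084). Efnb2 and Ephb4, a ligand and its receptor, were thus both higher in the libraries labelled cKO. Ephb4 held 62.8 to 67.0% of the EphB sum in cKO and 24.4 to 26.5% in WT, where Ephb6 held 62.5 to 63.7%. Ephb2 had 1.51, 0.89 and 1.98 RPKM in cKO and at most 0.06 RPKM in WT, and Ephb1 was at or under 0.14 RPKM. Both had means under 1 RPKM.

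**Figure D3:**
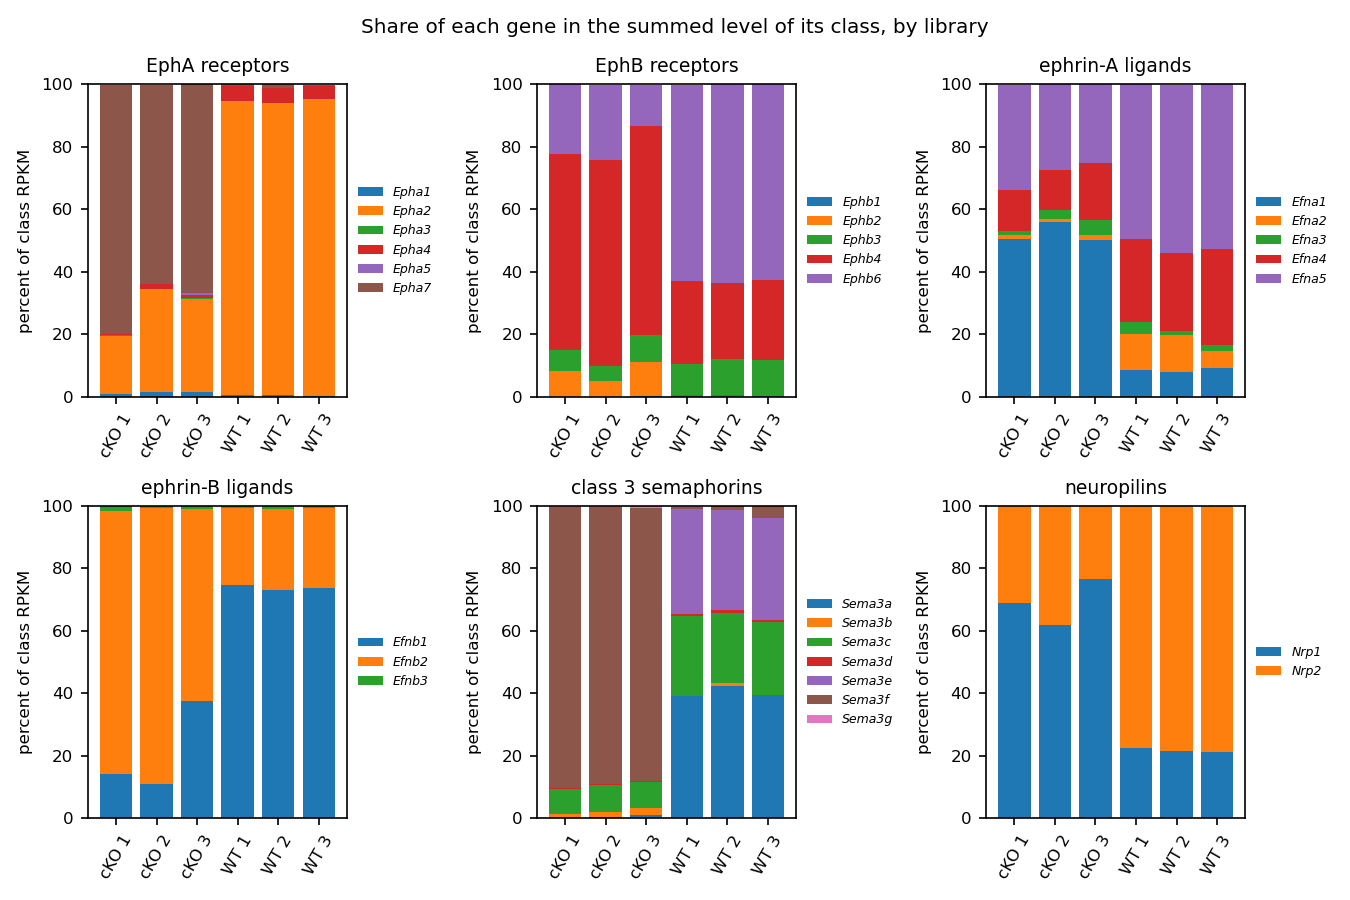
Percent of the summed RPKM of a class held by each of its genes, with 1 bar per library, for 6 classes. Sema3f held 87.5 to 89.9% of the class 3 semaphorin sum in cKO and 0.698 to 3.63% in WT, and Epha7 held 63.8 to 79.8% of the EphA sum in cKO and 0.342 to 1.05% in WT.

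Class 3 semaphorins, the secreted ones, differed in opposite directions, with 2 higher, 2 lower and 1 that did not pass. Of all genes tested, 34.7% were higher and 26.5% lower. Sema3b reached the minimum for testing only through its cKO values, and Sema3a and Sema3e only through their WT values. The class sum was 246, 191 and 183 RPKM in cKO and 60.2, 64.7 and 62.0 RPKM in WT, but 2 members fell to under 2 RPKM in every cKO library while Sema3f took up 87.5 to 89.9% of the sum. Sema3f, whose main receptor is neuropilin-2, had 221.28, 170.28 and 160.30 RPKM in cKO and 0.42, 0.71 and 2.25 RPKM in WT. It had the largest difference of the 32 genes and was 163-fold higher, or 326-fold without WT replicate 3 (log2 difference 6.52 ± 0.31 SE, limma adjusted p = 1.5e-05). Sema3b had 2.90, 3.41 and 3.97 RPKM in cKO and 0.10, 0.46 and 0.07 RPKM in WT, with 2 WT libraries under the floor (log2 difference 1.88, limma adjusted p = 0.00024). Sema3b and Sema3f lie together on the minus strand at chr9:107597674-107710475. Of 14 other tested genes within 250000 bp of them, 9 were higher, 1 lower and 4 did not pass. The share higher there was 64.3%, beside 34.7% of all genes, with a median log2 difference of 0.52, and chromosome 9 had a median of 0.340. Gnai2, the tested gene among those between the 2 semaphorins, chosen here for its place, had 192.36, 186.09 and 173.30 RPKM in cKO and 215.25, 198.20 and 195.15 RPKM in WT and did not pass (limma adjusted p = 0.13).

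Sema3e signals through plexin-D1 without a neuropilin. Sema3e had 0, 0 and 0.08 RPKM in cKO and 20.29, 20.77 and 20.35 RPKM in WT. It was undetected or under the floor in every cKO library while WT was nearly constant, so the log2 difference of -4.39 ± 0.11 SE (limma adjusted p = 1.1e-06) is given without a fold. Sema3a, a repellent that acts through neuropilin-1 and, in mice, protects bone, had 0.25, 0.43 and 1.91 RPKM in cKO and 23.50, 27.48 and 24.44 RPKM in WT. It was 29.1-fold lower, or 73.9-fold without cKO replicate 3, the highest of the cKO libraries (log2 difference -3.91 ± 0.31 SE, limma adjusted p = 0.00010). The 73.9-fold value rests on 0.25 and 0.43 RPKM in cKO, close to the floor, and is imprecise. Sema3a and Sema3e held 39.1 to 42.5% and 32.1 to 33.7% of the class sum in WT.

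Sema3c, which can use both neuropilins, had 19.94, 16.36 and 15.21 RPKM in cKO and 15.44, 14.59 and 14.48 RPKM in WT. The groups overlapped and it did not pass (log2 difference 0.19 ± 0.12 SE, limma adjusted p = 0.19). Sema3a, Sema3c and Sema3e, with Sema3d, lie on chromosome 5 between positions 12383385 and 17730268, where Sema3a and Sema3e were lower and Sema3c did not pass. Sema3d and Sema3g were at or under 1.11 RPKM and were not tested.

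Both neuropilins were lower in cKO, where 26.5% of all genes tested were lower. Neuropilins are co-receptors of class 3 semaphorins and also bind vascular endothelial growth factors. Nrp2 had 3.58, 6.19 and 5.82 RPKM in cKO and 88.57, 98.15 and 93.50 RPKM in WT. It was 18-fold lower, with no WT library near any cKO library (log2 difference -3.96 ± 0.18 SE, limma adjusted p = 1.2e-05). Nrp1 had 7.89, 10.06 and 19.07 RPKM in cKO and 25.71, 26.95 and 25.09 RPKM in WT, 2.10-fold lower with cKO replicate 3 close to WT (log2 difference -1.10 ± 0.28 SE, limma adjusted p = 0.014). Without WT replicate 2 the Nrp1 call was lost (limma adjusted p = 0.051). Nrp1 made up 61.9 to 76.6% of the neuropilin sum in cKO and 21.2 to 22.5% in WT. Sema3f and Nrp2, a ligand and its main receptor, thus differed in opposite directions, while Sema3a and Nrp1 were both lower.

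Plxnd1, the receptor of Sema3E, had 1.33, 1.66 and 1.48 RPKM in cKO and 24.93, 21.45 and 23.71 RPKM in WT. It was 15.7-fold lower and tight within both groups (log2 difference -3.29 ± 0.11 SE, limma adjusted p = 3.5e-06), so Sema3e and Plxnd1 were both lower in cKO. Their promoters and that of Nrp2 are shown because these 3 genes had the smallest adjusted p among the lower guidance genes. The windows are at chr5:14025026-14025325 on the plus strand for Sema3e, chr6:115994956-115995255 on the minus strand for Plxnd1 and chr1:62703067-62703366 on the plus strand for Nrp2.
Sema3e: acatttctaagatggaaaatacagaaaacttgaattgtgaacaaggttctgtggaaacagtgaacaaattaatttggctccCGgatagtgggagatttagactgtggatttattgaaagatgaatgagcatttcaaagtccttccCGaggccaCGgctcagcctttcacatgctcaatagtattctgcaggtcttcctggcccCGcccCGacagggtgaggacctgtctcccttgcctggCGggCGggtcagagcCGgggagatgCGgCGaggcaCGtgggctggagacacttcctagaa
Plxnd1: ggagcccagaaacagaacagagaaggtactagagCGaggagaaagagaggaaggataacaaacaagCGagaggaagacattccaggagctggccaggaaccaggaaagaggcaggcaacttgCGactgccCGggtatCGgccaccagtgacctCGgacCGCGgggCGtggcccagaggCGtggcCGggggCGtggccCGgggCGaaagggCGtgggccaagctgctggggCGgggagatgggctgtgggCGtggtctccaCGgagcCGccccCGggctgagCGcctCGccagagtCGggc
Nrp2: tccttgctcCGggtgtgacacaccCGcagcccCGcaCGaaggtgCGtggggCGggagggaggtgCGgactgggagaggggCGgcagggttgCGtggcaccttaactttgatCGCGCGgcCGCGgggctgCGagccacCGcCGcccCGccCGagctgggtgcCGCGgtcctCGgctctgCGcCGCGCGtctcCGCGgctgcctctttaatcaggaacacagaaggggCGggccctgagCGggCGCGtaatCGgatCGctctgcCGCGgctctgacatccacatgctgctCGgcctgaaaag
They hold 11, 23 and 37 CG, and as many are found in 41.9%, 21.6% and 5.37% of genes. Of the 50 guidance genes 44 had a window, with a median of 22.5 CG against 7 for all genes. The set of all genes was taken whatever their level, so these 2 medians are not a like comparison. The 11 higher genes with a window had a median of 26 CG, ranging from 3 to 38, and the 12 lower ones 20, ranging from 2 to 37, so the counts of both sets overlapped. The 6 that did not pass had a median of 23 CG and the 15 not tested had 14. At least 1 CG was found in all 44 and in 94.2% of all genes.

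Class A and B plexins showed smaller differences than Plxnd1. The plexin sum was 169, 162 and 175 RPKM in cKO and 278, 252 and 285 RPKM in WT. Plxna1, which pairs with neuropilins to receive class 3 semaphorins, had 27.58, 32.61 and 40.24 RPKM in cKO and 75.98, 66.49 and 78.19 RPKM in WT. It was 2.20-fold lower without overlap (log2 difference -1.13, limma adjusted p = 0.00074). Plxnb2, a receptor of class 4 semaphorins, had the highest level of the plexins in both groups, 121.00, 105.21 and 110.50 RPKM in cKO and 163.30, 147.65 and 166.47 RPKM in WT. It was 1.42-fold lower (log2 difference -0.50, limma adjusted p = 0.0021).

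Plxnb1, the receptor of Sema4D, rose, with 2.14, 2.25 and 2.83 RPKM in cKO and 0.17, 1.06 and 0.28 RPKM in WT. No fold is given because WT replicate 1 was under the floor (log2 difference 1.22, limma adjusted p = 0.0050). Plxna2 had 6.81, 9.79 and 11.62 RPKM in cKO and 7.37, 6.59 and 7.98 RPKM in WT, and Plxna3 had 9.45, 8.44 and 8.33 RPKM in cKO and 5.97, 8.58 and 7.98 RPKM in WT. Their groups overlapped and neither passed (limma adjusted p = 0.21 and 0.25). Both passed with each chromosome centred on its median (limma adjusted p = 0.034 and 0.047), and Plxna2 also without cKO replicate 1 (limma adjusted p = 0.023). Plxna4, Plxnb3 and Plxnc1 were at or under 1.76 RPKM and were not tested.

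**Figure D4:**
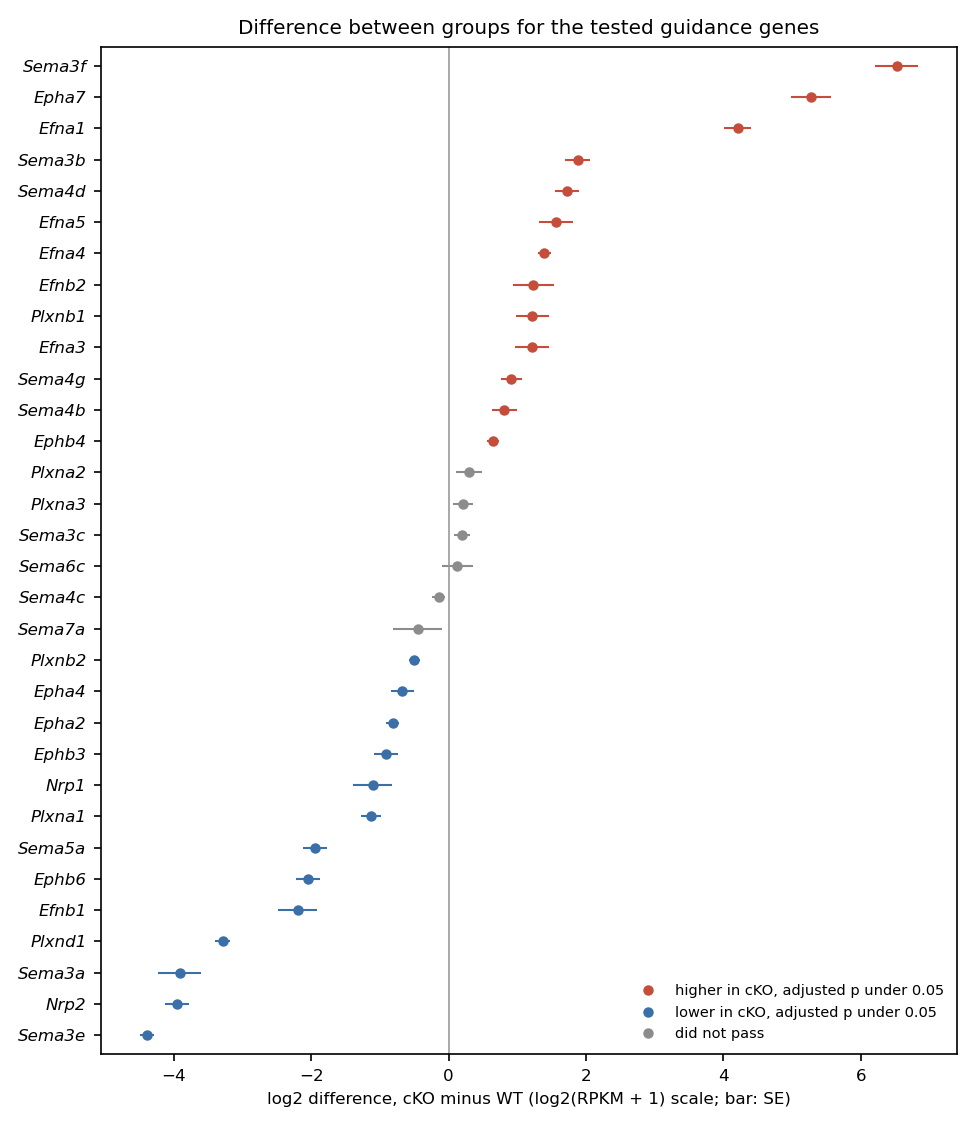
Log2 difference (cKO minus WT, on the log2(RPKM + 1) scale) of the 32 tested guidance genes in order of size, with bars of 1 SE. Sema3f, Epha7 and Efna1 stand at one end with 6.52, 5.28 and 4.21, and Sema3e, Nrp2, Sema3a and Plxnd1 at the other with -4.39, -3.96, -3.91 and -3.29.

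Class 4 semaphorins are transmembrane ligands of B-type plexins, and 3 of the 4 tested rose in cKO, where 34.7% of all genes did. Sema4d, the plexin-B1 ligand also known as CD100, had 3.09, 1.97 and 2.68 RPKM in cKO and 0.02, 0.03 and 0.18 RPKM in WT. It was under the floor in all 3 WT libraries (log2 difference 1.72, limma adjusted p = 0.00029), and without cKO replicate 1 its mean was too low to test. Sema4d, Sema4g and Plxnb1 each stayed under 4 RPKM, and each reached the minimum for testing only through its cKO values. Sema4g had 2.94, 2.14 and 2.47 RPKM in cKO and 1.10, 0.73 and 0.76 RPKM in WT, 2.92-fold higher (limma adjusted p = 0.0027). Sema4b had 4.51, 3.94 and 2.61 RPKM in cKO and 1.59, 1.57 and 1.75 RPKM in WT, 2.25-fold higher (log2 difference 0.81, limma adjusted p = 0.0082). It lies on chromosome 7, where the median log2 difference was 0.643, and once each chromosome was centred on its own median the gene no longer passed (limma adjusted p = 0.33). Sema4c, a ligand of plexin-B2, had 6.48, 6.52 and 7.51 RPKM in cKO and 7.77, 7.78 and 7.40 RPKM in WT and did not pass (limma adjusted p = 0.25).

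Of the membrane semaphorins of classes 5 to 7, Sema5a was the one that passed. Sema5a, which carries thrombospondin repeats, had 0.56, 0.15 and 0.40 RPKM in cKO and 3.65, 4.91 and 4.25 RPKM in WT. It was lower without overlap (log2 difference -1.95, limma adjusted p = 0.00016), and reached the minimum for testing only through its WT values. Sema7a, a lipid-anchored semaphorin that binds plexin-C1 and beta-1 integrins, had 0.73, 0.88 and 3.37 RPKM in cKO and 2.33, 2.21 and 2.37 RPKM in WT. Its cKO replicate 3 lay above WT and the other two below, and it did not pass (limma adjusted p = 0.31), while without cKO replicate 3 it was lower (limma adjusted p = 0.0020). Sema6c had 1.23, 0.94 and 2.21 RPKM in cKO and 1.49, 1.18 and 0.96 RPKM in WT and did not pass (limma adjusted p = 0.65).

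**Figure D5:**
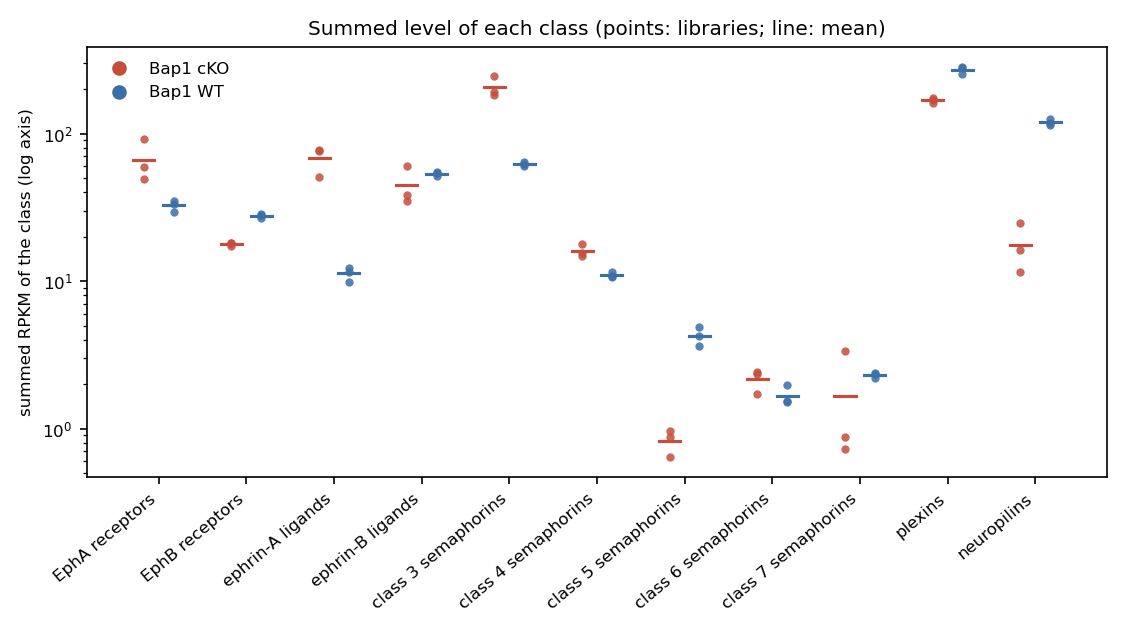
Summed RPKM of each class of guidance genes on a log axis, with 1 point per library and a line at the mean of 3. The ephrin-A and class 3 semaphorin sums were higher in cKO (red) than in WT (blue), the neuropilin and plexin sums were lower, and the ephrin-B, class 6 and class 7 sums overlapped.

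The spread among cKO libraries was larger than among WT libraries in 26 of the 32 guidance genes, or 81.2%, and in 74.8% of all genes tested. Their median SD on the log2 scale was 0.249 in cKO and 0.109 in WT, beside 0.186 and 0.0942 for all genes. In 23 of the 32, or 71.9%, cKO replicate 3 lay on the WT side of the mean of cKO replicates 1 and 2. The same held for 66.0% of all genes. The WT and replicate 3 values are both measured from that mean, so these shares do not show that replicate 3 resembled WT. Acta2, a smooth muscle marker, had 68.78, 149.26 and 1532.34 RPKM in cKO and 2145.34, 1944.95 and 2012.09 RPKM in WT, with cKO replicate 3 the nearest to WT. Its part in the spread of the guidance genes was not tested. Without cKO replicate 3, 12 guidance genes were higher and 14 lower of 31 tested: Efna3 was no longer tested and Sema7a was called lower.

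The 18 guidance genes under a mean of 1 RPKM were Epha1, Epha3, Epha5, Ephb1, Ephb2, Efna2, Efnb3, Sema3d, Sema3g, Sema4a, Sema4f, Sema5b, Sema6a, Sema6b, Sema6d, Plxna4, Plxnb3 and Plxnc1. Sema4a reached 0.73 RPKM, Sema4f 0.46, Sema5b 0.56, Sema6a 0.17, Sema6b 0.31 and Sema6d 1.40 RPKM at the highest. Plxnb3 was at 0 in all 3 cKO libraries and reached 0.03 RPKM in WT. With the minimum lowered to 0.1 RPKM, 44 were tested, 17 were higher and 14 lower, or 70.5% called, and 51.9% of all genes passing that minimum were called. Of the genes that this added, Ephb2 (limma adjusted p = 0.0014), Epha1 (0.0028), Sema5b (0.0038) and Sema3g (0.0081) were higher, and Sema6b was lower (0.024). Epha1 overlaps Zyx on the opposite strand, and Zyx had 56.00, 54.02 and 117.32 RPKM in cKO and 214.77, 176.69 and 208.58 RPKM in WT. The library kit was stranded, per the labels, but the strand setting of the counting is not given in the sources used here. No tested guidance gene overlaps an annotated gene that reached 1 RPKM.

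Further guidance genes were taken from 4 lists with 77 genes, of which 46 were tested, 24 were higher, 16 lower and 6 did not pass. That is 87% called, and 61.2% of all genes tested were called. Among netrin, slit and related cues and their receptors, 12 of 25 were tested, 8 were higher and 3 lower, where 34.7% of all genes were higher and 26.5% lower. Flrt2, which encodes a membrane protein that binds Unc5 receptors, had 9.49, 6.80 and 11.51 RPKM in cKO and 0.06, 0.16 and 0.14 RPKM in WT (log2 difference 3.17, limma adjusted p = 3.8e-05). Flrt1 had 4.24, 7.09 and 3.79 RPKM in cKO and 0, 0 and 0.01 RPKM in WT (limma adjusted p = 0.00014). Neither had a WT library above the floor. Slit2, a secreted ligand of Robo receptors, was 11.4-fold higher, and Rgma, a ligand of neogenin, was 8.96-fold higher. Unc5b, a netrin receptor, was 13.4-fold lower, with 1.16, 1.3 and 1.92 RPKM in cKO and 20.55, 17.99 and 20.29 RPKM in WT (limma adjusted p = 1.4e-05).

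Of 11 semaphorin co-receptors and alternative receptors, 4 were tested and 3 were higher, where 34.7% of all genes were. L1cam, an adhesion protein that joins neuropilin-1 in the Sema3A receptor, had 11.31, 8.70 and 4.96 RPKM in cKO and 0.51, 0.23 and 0.33 RPKM in WT, 23.3-fold higher (limma adjusted p = 0.00026). The receptor kinases Met and Erbb2, which associate with B-type plexins, were 3.88-fold and 2.75-fold higher. Itgb1, the beta-1 integrin, had 227.03, 333.41 and 459.82 RPKM in cKO and 444.00, 437.54 and 428.89 RPKM in WT and did not pass (limma adjusted p = 0.16). Without cKO replicate 3 it was lower (limma adjusted p = 0.0097), as it was with array weights (limma adjusted p = 0.017).

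Of 38 cytoplasmic partners of Eph receptors, ephrins and plexins, 30 were tested, 13 were higher, 13 lower and 4 did not pass, which is 86.7% called against 61.2% of all genes. Sdcbp, or syntenin, which binds the tail of B-type ephrins, was 2.46-fold higher. Ptpn13, a phosphatase with the same kind of target, was 3.78-fold higher, Tiam1, a Rac exchange factor, 7.91-fold and Nck1, an adaptor, 2.56-fold. Rgs3, a regulator of G-protein signalling that binds ephrin-B, was 9.36-fold lower, with 0.99, 1.51 and 2.48 RPKM in cKO and 16.87, 14.56 and 15.19 RPKM in WT. Itsn1, an exchange factor for Cdc42, was 3.87-fold lower, the small GTPase gene Rhod 3.32-fold and the exchange factor Arhgef5 2.77-fold. The Eph receptors Epha6, Epha8 and Epha10 had means under 1 RPKM.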

How the data were processed

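PolyA RNA of 6 libraries, 3 per genotype, was sequenced as pairs of 151 bp reads from a stranded kit, per the labels. The authors deposited RPKM values with 2 decimals for 55471 Ensembl genes. Tools in the submitters' processing notes are STAR 2.7.1a, RSEM 1.3.1 and cutadapt 2.8, on GRCm38, and the annotation version is not given in the sources used here. Symbols and coordinates came from GENCODE M21. RPKM keep no counts, so intervals from reads are not given. Low values of genes with 800 to 3500 bp transcripts move in steps, and these steps gave an estimate of depth. Within a tolerance of 0.2, 81.8 to 91.4% of these values were whole fragments, and by chance 40% would be. The floor is 3 fragments per kilobase and covers counting error only.

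The test was limma 3.58.1 (R 4.3.3), 2-sided, applied to log2(RPKM + 1) of genes that averaged 1 RPKM or more, with a variance trend, genotype as the only term, and a Benjamini-Hochberg adjusted p under 0.05 over all genes tested. Log2 differences on this scale understate the change of low genes. Folds are ratios of mean RPKM, given where all libraries reached the floor. Class sums and shares were not tested. The script was also run on simulated data with few changed genes and the same spread in both groups. The data here differ in both, so that run does not check the calls. Promoter windows of 250 bases before to 50 after each start came from RefSeq, GRCm38.p6. Where a gene had several windows, the first listed was used. Alternatives were other pseudocounts (0.1 and 0.5), minimum means (0.1, 5 and none), scalings, centring of each chromosome, variance settings, a replicate block, thresholds and leaving out each library. All 50 guidance genes could be named, and up to 4 genes per direction of each further list by the smallest p. Members and lists were chosen with earlier results of these data known. Tables were made with pandas 2.3.3 and numpy 2.4.6 and figures with matplotlib 3.10.9, under Python 3.11.15.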

Additional observations from a re-analysis of the deposited data

How the results depend on the processing

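Of 623 values of the 32 tested guidance genes under alternatives, 605 kept their direction and call, 10 lost the call, 5 gained it and 3 changed sign. Of the genes, 23 kept both under the alternatives in which they were tested, other than the minimum log2 difference, and 9 did not. At a minimum mean of 5 RPKM 11 of the 32 were not tested, nor were Efna3 without cKO replicate 2 or 3, Sema4d without cKO replicate 1 and Epha4 without any one WT replicate. The 3 that changed sign had not passed: Sema3c was at -0.0165 and Sema4c at 0.152 with each chromosome centred, and Sema6c was at -0.0806 without cKO replicate 3 (-0.0806 to 0.283 over the libraries left out). The calls lost for Epha4, Sema4b and Nrp1 and those gained for Sema7a, Plxna2 and Plxna3 stand beside their values, and Sema7a also passed with array weights (limma adjusted p = 0.030). The causes were not tested. With a log2 difference of at least 1 in size, 1632 genes were higher and 1499 lower of the 4237 and 3239 called without it. With a minimum mean of 5 RPKM, fewer genes were tested and 7 guidance genes were higher. Leaving out 1 library at a time gave 12 to 13 guidance genes higher and 11 to 14 lower. TMM scaling moved the share of higher calls to 49.3%, from 56.7% as deposited.

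With the replicate number as a block, 13 guidance genes were higher and 13 lower, and 3811 genes of all were higher and 2938 lower. The deviations of same-numbered libraries from their group means had correlations of -0.017, 0.050 and -0.019. With 3 libraries a group and a wide spread in cKO, these values cannot tell whether same-numbered libraries were paired.

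Values under the floor of 0.135 to 0.229 RPKM rest on few fragments per kilobase and are imprecise. This touches the WT levels of Epha7, Efna3, Sema3b, Sema4d and Plxnb1 and the cKO levels of Sema3e and Sema5a. Genotype and the shift in stromal markers cannot be told apart with these 6 libraries.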
